A study of Sus scrofa with 4 samples.

Results

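Antioxidant, glutathione and NADPH-supplying enzymes were examined in pig blastocysts that had grown with ethanol. The set is a list of 46 genes, and its members are the array probes that the platform annotation gives one of these symbols. It came to 55 probes for 35 genes, of 11060 named genes on the array. The annotation used here gave no probe to HMOX1, SOD3, GPX4, GPX8, GSTP1, GSTO1, MGST1, SRXN1, TKT, MT1A or MT2A, so these 11 genes were not analysed here. Of the 35 genes, 31 had at least 1 probe above background, on 46 probes. The remaining 4 are named below.

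The ethanol group was Sus scrofa embryos kept from the zygote for 7 days in PZM3, a pig embryo medium, with 0.2% ethanol. The control group had no added compound. Both were collected as expanded blastocysts, in pools of 10 embryos, and the labels mention sealed glass vials without saying whether this held for both groups. Each of 4 two-colour arrays set 1 ethanol pool against 1 control pool. Ethanol RNA carried the dye Cy5 on arrays 1 and 3 and Cy3 on arrays 2 and 4. Nothing in the labels says that the pools came from separate cultures, so the p-values measure only the spread between these pools, which may be technical. The pools were whole embryos, in which fewer cells of a type and less RNA per cell cannot be told apart.

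Cells make superoxide and hydrogen peroxide as by-products of respiration and of oxidase enzymes. Superoxide dismutases turn superoxide into hydrogen peroxide, which catalase, glutathione peroxidases and peroxiredoxins then reduce. The peroxidases draw their electrons from glutathione and thioredoxin, and both of these are recharged with NADPH, much of it from the pentose phosphate pathway. The transcription factor NRF2 (NFE2L2), held down by KEAP1, drives many genes of this defence. Ethanol is known to raise oxidative load through its own oxidation, and cultured embryos are sensitive to oxygen.

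The measured transcripts of this defence mostly had small ratios of ethanol-exposed to control blastocysts. The comparison asks which of them differ in embryos that became blastocysts in ethanol. Values are log2 ratios (ethanol over control) fitted in limma beside a coefficient for the dye, and the brightest kept probe represents a gene. Ratios above 0 were found in 18 of the 31 genes and ratios below 0 in 13, at a median of 0.04, while 49.6% of all 7344 named genes lay above 0 and their median was close to 0 (-0.001). The ratios ran from -0.31 for TALDO1 to 0.81 for GPX6. The size of the ratio, regardless of sign, had a median of 0.07 in the members and 0.07 in all named genes. It was smaller than its own standard error (SE) in 18 of the 31 members (58.1%), and in 58.1% of all named genes.

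None of the 46 kept member probes passed limma's test once p was adjusted (Benjamini-Hochberg) across the 25899 probes kept in all. The call rate over these was 0%, with a smallest adjusted p of 0.514, and the smallest among the members was 0.54. Limma's unadjusted p was under 0.05 for 6 member probes, against 7.27% of all kept probes. On the brightest probe this p was met by 5 of 31 genes, GPX6, SOD1, MGST3 and GPX3 in the higher direction and TALDO1 in the lower. Over all named genes the share was 9.01%, made up of 4.83% higher and 4.18% lower. The count of 5 ran from 2 without array 2 to 7 without array 4 when an array was left out, with 3 without array 1 and 5 without array 3. With all arrays it was 2 without the dye term, 3 with an offset of 0 in the background correction, and 4 to 6 under the other settings tried. In 29 of the 31 genes the whole 95% interval lay within a 1.5-fold difference either way, as it did for 94.6% of all named genes. The exceptions were GPX6 and GSTM3. Like the p-values, these intervals measure only the spread between these pools, which may be technical.

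**Figure D1:**
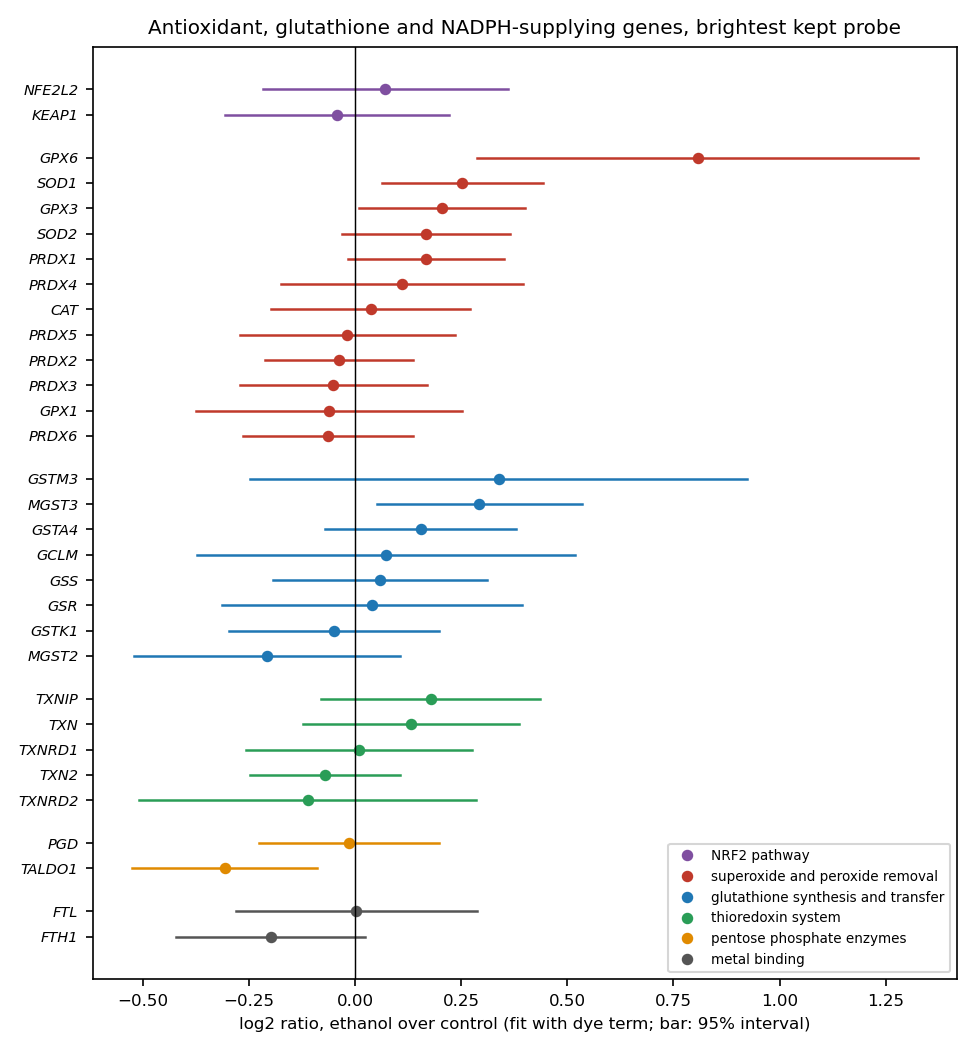
Fitted log2 ratio of ethanol over control for the 31 measured genes (points) with 95% intervals (bars), on the brightest kept probe and grouped by role. GPX6 stands highest at 0.81 and TALDO1 lowest at -0.31, and most intervals cross 0.

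The superoxide dismutases both lay above 0. SOD1 encodes the copper and zinc enzyme of the cytosol. Its ratio before the dye term was 0.49, 0.17, 0.27 and 0.07 on arrays 1 to 4, so the ethanol pool was the brighter on every array. In log2 intensity the ethanol pools read 10.15, 10.46, 10.40 and 10.58, against 9.66, 10.29, 10.13 and 10.51 in the control pools. The 2 ranges overlap, and arrays differed more from each other than the pools on an array did. The fitted ratio was 0.25 (SE 0.08, 1.19-fold, 95% interval 0.06 to 0.44; limma's unadjusted p = 0.0176, adjusted p = 0.579). SOD2, the manganese enzyme of mitochondria, had 0.16, 0.14, 0.39 and -0.02 on the 4 arrays before the dye term. Its fitted ratio was 0.17 (SE 0.08; limma's unadjusted p = 0.0829), with the ratio close to 0 on array 4.

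Of the glutathione peroxidases, GPX6 had the largest ratio of any member. GPX6 is a selenoprotein in humans and is known there mainly from olfactory tissue and embryos. Before the dye term its ratio was 1.25 and 1.30 on arrays 1 and 2, and 0.21 and 0.46 on arrays 3 and 4. All 4 favour the ethanol pool, but the size differs several-fold between the first and the last pair of arrays, and each pair holds both dye orientations. In log2 intensity the ethanol pools read 8.44, 9.26, 7.80 and 9.15 and the control pools 7.19, 7.96, 7.59 and 8.69, so the groups overlap. The fitted ratio was 0.81 (SE 0.21, 1.75-fold, 95% interval 0.29 to 1.33; limma's unadjusted p = 0.00928, adjusted p = 0.54). It was the single member over 1.5-fold, a size reached by 0.354% of all named genes. The dye coefficient of this probe, the part of the log2 ratio that stays with Cy5, was only -0.08. With 1 array left out the ratio lay between 0.54 and 1.07. With all arrays and other processing it lay between 0.586 (mean pixel signals), close to 1.5-fold, and 0.98 (offset of 0 in the background correction). A second GPX6 probe was above background in the ethanol RNA of 2 arrays and the control RNA of 1, so it was not kept and gives no second reading. Its ratios before the dye term were 0.07, -0.11, -0.13 and 0.03. Both GPX6 probes carry the same transcript accession, which RefSeq lists under GPX6.

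GPX3, the secreted glutathione peroxidase of plasma, was read by probes that gave the same direction. The brighter probe gave -0.24 and -0.22 on arrays 1 and 3, where Cy5 marked the ethanol RNA, and 0.78 and 0.50 on arrays 2 and 4, so its sign before the dye term followed the dye. Its dye coefficient was -0.43, and with that removed the arrays gave 0.19, 0.34, 0.22 and 0.07. The fitted ratio was 0.21 (SE 0.08, 95% interval 0.01 to 0.40; limma's unadjusted p = 0.0426, adjusted p = 0.671). The dimmer GPX3 probe, above background on 3 arrays in both RNAs, had 0.11 (SE 0.09). GPX1, the cytosolic enzyme, ranged from -0.44 on array 1 to 0.50 on array 4 before the dye term. Its fitted ratio of -0.06 (SE 0.13) is well inside that spread. GPX2, the gastrointestinal form, had a single probe that was above background in the control RNA of 1 array and in the ethanol RNA of none. Catalase (CAT) had 0.04 (SE 0.09), and its dimmer kept probe 0.00 (SE 0.07).

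**Figure D2:**
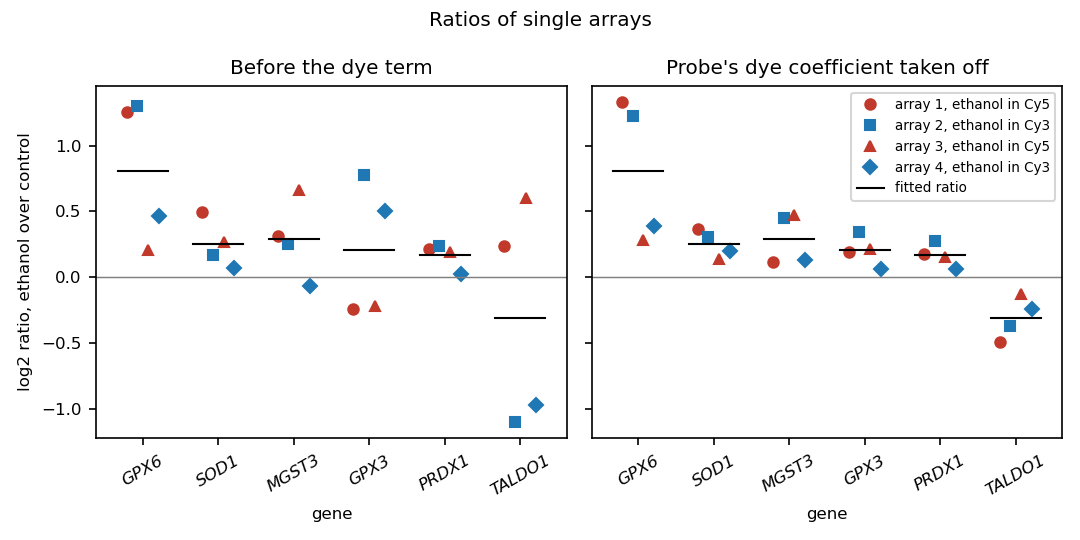
Log2 ratio of ethanol over control on each of the 4 arrays (points; colour gives the dye of the ethanol RNA, shape the array) for 6 genes, before the dye term (left) and with each probe's dye coefficient taken off (right). Black lines are the fitted ratios. TALDO1 and GPX3 split by dye on the left and keep 1 sign on the right, and GPX6 is high on arrays 1 and 2.

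The peroxiredoxins, abundant peroxidases that use thioredoxin or, for PRDX6, glutathione, lay between -0.07 and 0.17. PRDX1, a cytosolic member, had 0.21, 0.24, 0.19 and 0.02 on arrays 1 to 4 before the dye term. All 4 are above 0, with array 4 near 0. Its fitted ratio was 0.17 (SE 0.07, 95% interval -0.02 to 0.35; limma's unadjusted p = 0.0679), and its dye coefficient was 0.04. PRDX4 of the endoplasmic reticulum had 0.11 (SE 0.12). The other 4 members lay slightly below 0, at -0.02 for PRDX5, -0.04 for PRDX2, -0.05 for the mitochondrial PRDX3 and -0.07 for PRDX6. None of these 4 was larger than its SE. The bright PRDX6 probe gave 0.31 and 0.57 on arrays 1 and 3 but -0.49 and -0.65 on arrays 2 and 4, a dye coefficient of 0.50 beside a fitted ratio of -0.07. Across the 12 measured genes of superoxide and peroxide removal, the ratio was above 0 in 7 and below 0 in 5, and the median was 0.07. That median was -0.02 without array 4.

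**Figure D3:**
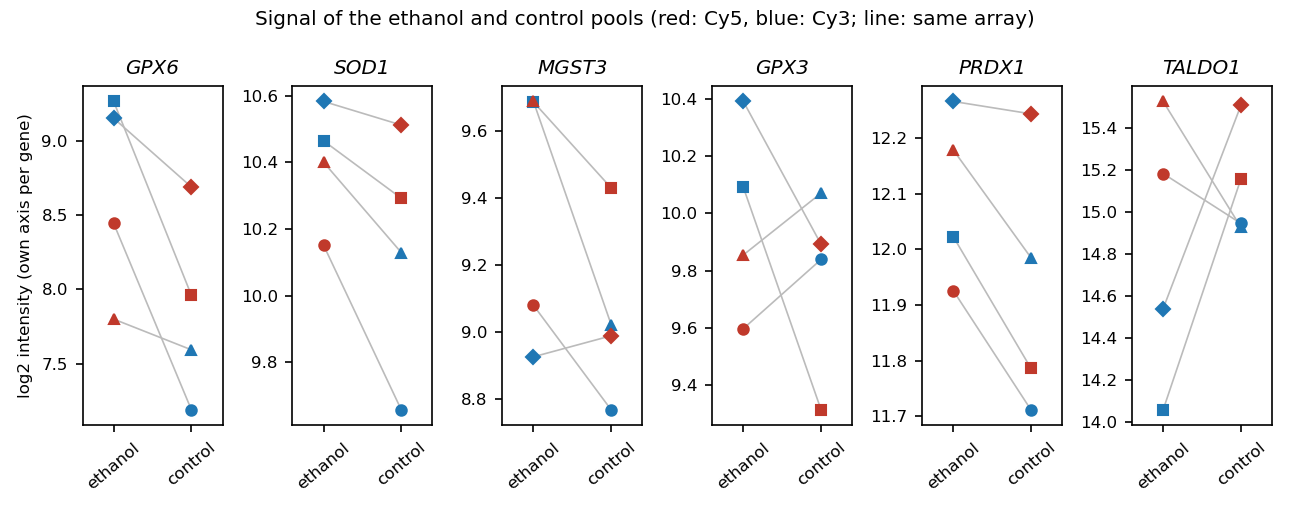
Log2 intensity of the ethanol pools (left of each panel) and control pools (right) for 6 genes, after within-array and between-array normalization. Lines join the pools of an array and colour gives the dye. SOD1, GPX6 and PRDX1 slope the same way on all 4 arrays, and in each of the 6 panels the ranges overlap.

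A ratio of the same sign on all 4 arrays before the dye term was seen in 3 member genes, SOD1, GPX6 and PRDX1, all higher with ethanol, and in none in the lower direction. The shares over all named genes were 5.5% higher and 4.85% lower. With the dye coefficient removed, which brings the arrays of both orientations to a common mean, 6 members were above 0 on every array (SOD1, SOD2, GPX3, GPX6, PRDX1 and MGST3) and 2 below (TALDO1 and FTH1). The shares over all named genes were 12% higher and 12.6% lower. No member had ethanol and control intensities that failed to overlap, as 1.35% of named genes did.

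Genes of glutathione synthesis had ratios near 0. GCLM, the regulatory subunit of the ligase that makes the first step, had -0.27, 0.48, 0.46 and -0.38 on arrays 1 to 4, with arrays 2 and 3 above 0 and arrays 1 and 4 below. Its fitted ratio was 0.07 (SE 0.18). The single probe of GCLC, the catalytic subunit, was above background on no array in either RNA. GSS, which adds the last amino acid, had 0.06 (SE 0.10). GSR, which returns oxidised glutathione to its reduced form with NADPH, had 0.04 (SE 0.14), and a second probe had 0.03 (SE 0.09).

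The glutathione transferases, which join glutathione to reactive compounds, went both ways. MGST3, a microsomal transferase with peroxidase activity, had 0.31, 0.26, 0.67 and -0.06 on arrays 1 to 4 before the dye term. The ethanol pools read 9.08, 9.69, 9.69 and 8.93 in log2 intensity, against 8.77, 9.43, 9.02 and 8.99 in the control pools. Array 4 alone had the control pool slightly brighter, and the groups overlap. The fitted ratio was 0.29 (SE 0.10, 1.22-fold, 95% interval 0.05 to 0.53; limma's unadjusted p = 0.0253, adjusted p = 0.625). Its relative MGST2 had -0.21 (SE 0.13), with -0.67 on array 2 and -0.13 to 0.05 on the others. It was -0.03 without array 2 and -0.39 without array 4. GSTM3, a mu-class transferase, had 1.05 and 0.71 on arrays 1 and 4 and -0.40 and -0.01 on arrays 2 and 3. That spread left a fitted ratio of 0.34 with a 95% interval of -0.25 to 0.92, and its second probe had 0.01 (SE 0.08). Without array 4 the ratio of the first probe was 0.06, without array 1 it was 0.07 and without array 2 it was 0.61. GSTA4, which conjugates aldehydes of lipid peroxidation, had 0.15 (SE 0.09), or 0.05 without array 1, and GSTK1 of mitochondria and peroxisomes had -0.05 (SE 0.10). The probe of GSTA1 was above background on no array. Over the 8 measured genes of glutathione synthesis and transfer, 6 lay above 0, with a median of 0.07, or -0.03 without array 3.

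In the thioredoxin system every 95% interval included 0. TXN, cytosolic thioredoxin, had 0.13 (SE 0.10), with 0.57 on array 3 and -0.19 to 0.10 on the others, and 0.01 without array 3. Its reductase TXNRD1 had 0.01 (SE 0.11). The mitochondrial thioredoxin TXN2 had -0.07 (SE 0.07) and -0.02 (SE 0.09) on its 2 probes. Its reductase TXNRD2 had 0.25 and 0.20 on arrays 1 and 2 and -0.59 and -0.31 on arrays 3 and 4, for a fitted ratio of -0.11 (SE 0.16). TXNIP, which binds and inhibits thioredoxin, had 0.18 (SE 0.10), with 0.62 on array 2 and -0.09 to 0.11 on the others, and 0.05 without array 2. The 5 measured genes split into 3 above 0 and 2 below. Their median was 0.01, or 0.135 without array 1.

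The pentose phosphate enzymes supplied the lowest ratio. TALDO1, the transaldolase of the non-oxidative branch, gave 0.24 and 0.60 on arrays 1 and 3, and -1.10 and -0.97 on arrays 2 and 4, so its sign before the dye term followed the dye. Its dye coefficient of 0.73 was the largest of the 31 genes and larger than the fitted ratio. In log2 intensity the ethanol pools read 15.18, 14.06, 15.53 and 14.54, against 14.95, 15.16, 14.93 and 15.51 in the control pools, which follows the dye. With the dye coefficient removed, the arrays gave -0.49, -0.37, -0.13 and -0.24, all below 0. The fitted ratio was -0.31 (SE 0.09, 95% interval -0.53 to -0.09; limma's unadjusted p = 0.014, adjusted p = 0.557). A dimmer TALDO1 probe had almost no dye coefficient (-0.01) and gave -0.15, -0.29, -0.11 and 0.06, for a fitted ratio of -0.12 (SE 0.09). PGD, which makes NADPH from phosphogluconate in the oxidative branch, had -0.015 (SE 0.09; 95% interval -0.23 to 0.20).

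Of the metal-binding members, only the ferritin chains were measured. Ferritin keeps iron from reacting with peroxide. FTH1, the ferritin heavy chain with the ferroxidase centre, was read by 2 bright probes that gave similar ratios. The brighter had -0.33, 0.20, -0.70 and 0.04 on arrays 1 to 4 and a fitted ratio of -0.20 (SE 0.09; limma's unadjusted p = 0.0707). The other had a dye coefficient of only 0.01 and gave -0.03, -0.17, -0.45 and -0.34, below 0 on every array. Its fitted ratio was -0.25 (SE 0.095, 95% interval -0.48 to -0.01; limma's unadjusted p = 0.0419, adjusted p = 0.67). FTL, the light chain, had 0.00 (SE 0.11), with 0.25 and 0.16 on arrays 1 and 2 and -0.34 and -0.06 on arrays 3 and 4.

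The NRF2 regulators gave small ratios. NFE2L2 had 0.07 (SE 0.12) on its brightest probe, and -0.16 (SE 0.12) and -0.05 (SE 0.10) on the other kept probes, so its direction is not settled. KEAP1 had -0.04 (SE 0.11), with 0.35 on array 1 and -0.27 to -0.08 on the others. NQO1, a quinone reductase and a standard NRF2 target, had 3 probes, of which none was kept and each was above background in the ethanol and in the control RNA of at most 1 array. No ratio is given for it.

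**Figure D4:**
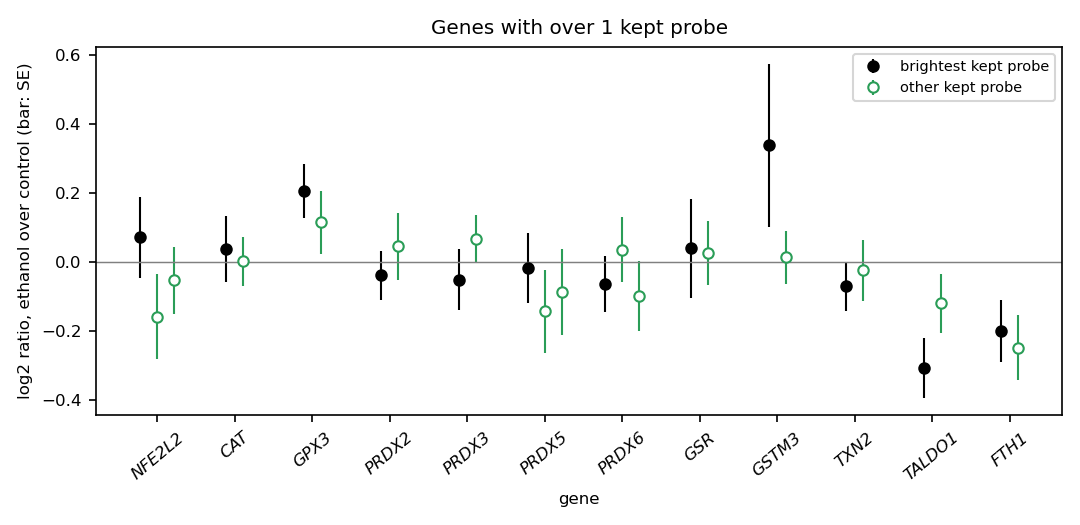
Fitted log2 ratio of ethanol over control, with its SE as a bar, for each kept probe of the 12 genes that had over 1. Filled points are the brightest probe of a gene. The FTH1 probes lie together below 0, the GSTM3 probes lie apart, and 4 genes have probes on both sides of 0.

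Of the 12 genes with over 1 kept probe, NFE2L2, PRDX2, PRDX3 and PRDX6 had probes of both signs, and the other 8 kept 1 sign. The probes of FTH1 differed by less than their SE, and the TALDO1 and GPX3 probes shared a direction with the dimmer probe nearer to 0. The widest gap was that of GSTM3, 0.34 against 0.01.

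Dye coefficients exceeded the fitted ratio in most members. In 19 of the 31 members (61.3%) the dye coefficient was the larger in size, as in 65.1% of all named genes. The members' dye coefficients ran from -0.43 for GPX3 to 0.73 for TALDO1, with a median size of 0.13 in members and 0.13 in all named genes. Across the 31 members, ratios before the dye term correlated at 0.217 between arrays 1 and 3 and at 0.356 between arrays 2 and 4, which share a dye orientation. Between arrays of opposite orientation the correlation ran from -0.356 to 0.043. Over all 7344 named genes it was 0.43 and 0.431 for the same pairs of shared orientation, and -0.375 to -0.256 between opposite orientations. These are descriptions over genes, which are not replicates and share each array's dye and hybridization.

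**Figure D5:**
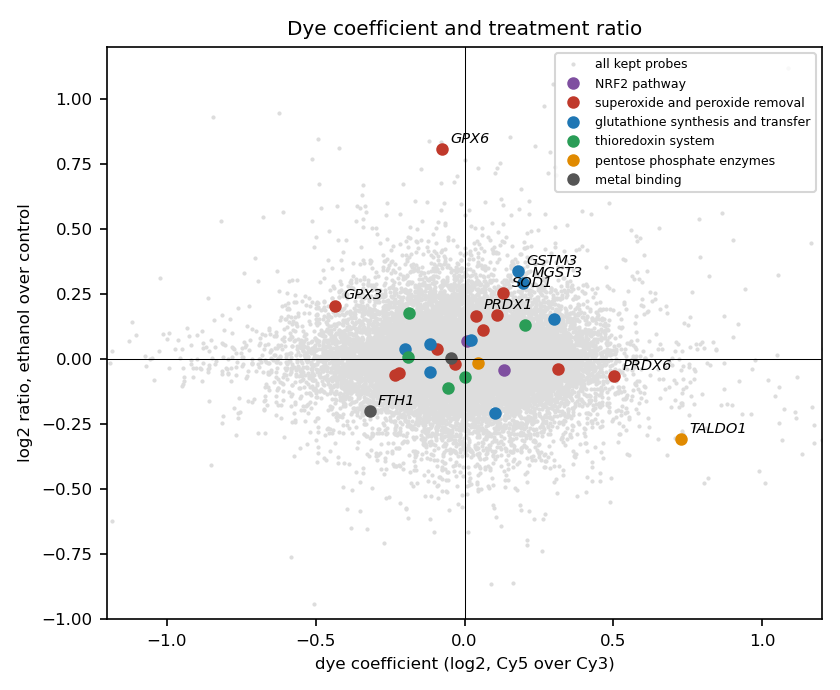
Each probe's dye coefficient (horizontal axis, log2 Cy5 over Cy3) against its fitted log2 ratio of ethanol over control (vertical axis). Grey points are all kept probes within the axes, and coloured points are the 31 member genes. TALDO1 and PRDX6 lie to the right with large dye coefficients, and GPX6 lies near a dye coefficient of 0.

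Members were also read by features the list did not use, in groupings made after their values were seen. The mitochondrial dismutase, peroxiredoxin and thioredoxin pair, SOD2, PRDX3, TXN2 and TXNRD2, had a median of -0.06, with SOD2 at 0.17 and the other 3 between -0.11 and -0.05. The measured members that are selenoproteins in humans, GPX1, GPX3, GPX6, TXNRD1 and TXNRD2, had a median of 0.01 and ran from -0.11 to 0.81. Neither grouping had a common direction.

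Other genes of the same chemistry were read from 4 further lists. Of further NADPH-supplying genes, 7 of 15 listed were measured, with 4 above 0, 3 below and a median of 0.08. NNT, the mitochondrial transhydrogenase, had 0.55, 0.98, 0.36 and -0.25 on arrays 1 to 4 and a fitted ratio of 0.41 (SE 0.20). The malic enzyme ME2 had 0.15 (SE 0.07), but its 2 kept probes lay on both sides of 0, at -0.09 and 0.15. In the lower direction stood the isocitrate dehydrogenase IDH1 at -0.14 (SE 0.11) and the lactonase PGLS at -0.08 (SE 0.08). Of genes that supply or use glutathione, 12 of 28 were measured (7 above 0, 5 below), among them the glutaredoxins GLRX at 0.18 (SE 0.07) and GLRX3 at 0.22 (SE 0.09). GLRX3 had 4 kept probes between -0.04 and 0.22. The transferase GSTT1 had -0.18 (SE 0.09), on a probe above background in the ethanol RNA of 1 array and the control RNA of 4, and the cyclotransferase GGCT had -0.10 (SE 0.10).

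In thiol redox and repair, 11 of 18 listed genes were measured, with 3 above 0, 8 below and a median of -0.06. SESN1 had 0.13 (SE 0.07), the methionine sulfoxide reductase MSRA 0.07 (SE 0.12), TXNDC5 -0.12 (SE 0.09) and TXNDC17 -0.12 (SE 0.11). In NRF2 partners and heme, iron and copper handling, 12 of 23 were measured, 8 above 0 and 4 below. IREB2, an iron-sensing regulator of ferritin and transferrin receptor mRNAs, had 0.23 (SE 0.09) and 0.25 on its 2 kept probes. CCS, the copper chaperone of SOD1, had 0.16 (SE 0.09), HMOX2 -0.18 (SE 0.11) and the biliverdin reductase BLVRA -0.10 (SE 0.07), with BLVRA probes between -0.10 and 0.17. No gene of these 4 lists passed limma's adjusted threshold. Limma's unadjusted p was under 0.05 for GLRX (0.0393) and IREB2 (0.0351), both in the higher direction. Over all named genes the share was 9.01%, with 4.83% in the higher direction.

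Markers of the labelled stage were measured. Of listed trophectoderm markers, 8 of 9 were measured, CDX2, GATA2, GATA3, KRT8 and KRT18 among them, and of inner cell mass markers 4 of 7, POU5F1 included. Ratios were below 0 in 5 of the 8 trophectoderm genes (median -0.11) and in all 4 inner cell mass genes (median -0.16), and above 0 in 3 of 4 measured hypoblast genes (median 0.16). None of these passed limma's adjusted threshold. Limma's unadjusted p was under 0.05 for TEAD4 (-0.29), GATA2 (-0.18) and ESRRB (-0.26), and for 9.01% of all named genes. The ESRRB probe was dim, with a mean log2 intensity of 7.03, and was above background in the ethanol RNA of 3 arrays. Cumulus and granulosa markers were measured for 6 of 8 genes but dimly, with mean log2 intensities of 6.69 to 7.52, against a 95th percentile of 6.58 in negative-control spots. Their ratios lay between 0.01 and 0.08, and those of the 6 measured oocyte markers between -0.39 and 0.22. At these ends stood KPNA7 (-0.39) and ZP4 (0.22), both with limma's unadjusted p under 0.05. Ethanol and control intensities did not overlap for KPNA7, as in 1.35% of named genes. The part of these cell types in the ratios above was not tested. The share of probes above background was 45.3% to 57.3% in Cy5 and 70.4% to 73.5% in Cy3. The number of arrays limits the precision. No member spot had a median signal at the scanner's ceiling, and spots with only part of their pixels at the ceiling were not counted.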

How the data were processed

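RNA from pools of embryos was amplified in successive rounds of T7 transcription and labelled with Cy3 or Cy5 on guanine, per the labels' protocols. The deposited scanner files give each dye's spot intensity and surrounding background intensity before any normalization, per the file headers. The sources used here name no scanner software. The authors' deposited value table holds log2 ratios by an unstated method. Against the ratios computed here it correlated at 0.963 to 0.991 as Cy5 over Cy3, with slopes of 0.986 to 1.019, and its column medians were -0.0138, -9.35e-05, 0.00378 and 0.00108. Its scale and direction therefore follow from the comparison, and its columns are centred near 0, by a method that is unknown. A further table, with 4 value columns that could not be tied to 1 sample each, was not used.

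Median pixel signals were corrected with normexp (offset 50) and normalized by loess within arrays in limma 3.58.1 under R 4.3.3, with weight 0 for 1426 non-probe spots. The 53 spots the scanner software marked as ignored were left out, 1 of them on an NQO1 probe. A probe was kept when its signal was over the 95th percentile of 153 negative-control spots on at least 3 arrays in ethanol RNA or at least 3 in control RNA, which kept 25899 of 43794 probes (59.1%). The model held ethanol over control and a dye coefficient, with 2 residual degrees of freedom. Channel intensities were further scaled by Aquantile. Gene names are the platform's; 17 member probes have an accession, and for 15 of these RefSeq (Sscrofa11.1) lists the transcript, each time under the same symbol. Symbols of the form LOC with digits were not counted as names. The brightest kept probe represents a gene. Every member with a probe is named, and of each further list up to 2 genes of smallest p in each direction. The members, lists and tests were chosen with earlier results of these data known. Alternatives covered background, normalization, filter, dye term, variance model, separate channels, the authors' values, mean pixel signals, averaged probes and leaving out each array. The sources used here name neither slide nor scan date, so no batch was tested.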

Additional observations from a re-analysis of the deposited data

Results flagged for a closer look

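Dixon's criterion for groups of 4, which finds 1 array standing well apart, was applied to 93 values, the members' ratios before the dye term and their ethanol and control intensities, and found 4, where chance alone gives about 1 in 20. The brightest NFE2L2 probe read 8.32 in the ethanol pool and 8.575 in the control pool of array 4 (log2 intensity). On the other arrays it read 11.24 to 11.47 in ethanol pools and 11.09 to 11.26 in control pools. Both pools of array 4 were low together, so the ratio on that array was -0.25. The other kept NFE2L2 probes showed no such gap. The second read 8.65 in the ethanol pool and 8.99 in the control pool of array 4. PRDX2 read 12.89 in the ethanol pool of array 2, against 13.34 to 13.42 in the other ethanol pools. FTL read 13.58 in the control pool of array 1, against 13.95 to 14.02 in the other control pools. The cause was not tested.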

How the results depend on the processing

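Under 10 alternatives and with each of the 4 arrays left out, limma's count past the adjusted threshold was 0 over all probes and 0 in the members. The smallest adjusted p over all probes was 0.0542, without array 3. The count at limma's unadjusted p under 0.05 ran from 878 of 25899 probes without the dye term to 2705 of 43794 without the filter. As a share of the probes tested, separate channels stood higher than the run without the filter, with 2606 of 25870. Of 465 member values under these settings and with a gene's probes averaged, 432 kept their sign, and 14 of the 31 genes kept it throughout, GPX6, SOD1, SOD2, GPX3, PRDX1, MGST3, TALDO1 and FTH1 among them. The members' median of 0.04 was 0.053 with median centring, 0.0089 with probes averaged, and 0.0268 to 0.0535 with 1 array left out. With probes averaged the sign turned for NFE2L2 (-0.047), PRDX2 (0.0029) and PRDX3 (0.0068). With the authors' values it turned for CAT (-7e-04) and TXNRD1 (-0.0065), and with median centring for FTL (-0.0123).

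With 1 array left out the sign turned for 16 genes, whose values ran as follows. NFE2L2 had -0.0872 to 0.23, KEAP1 -0.17 to 0.088, CAT -0.0669 to 0.14 and GPX1 -0.23 to 0.11. PRDX3 had -0.14 to 0.0368, PRDX4 -0.0385 to 0.26, PRDX5 -0.14 to 0.11 and PRDX6 -0.13 to 2e-04. GCLM had -0.14 to 0.29, GSS -0.0443 to 0.16, GSR -0.16 to 0.24 and GSTK1 -0.17 to 0.0675. TXNRD1 had -0.13 to 0.15, TXNRD2 -0.32 to 0.0976, PGD -0.0879 to 0.0578 and FTL -0.14 to 0.15. Among genes that kept their sign, GSTM3 had 0.06 to 0.61, GSTA4 0.05 to 0.26, TXN 0.01 to 0.25 and TXNIP 0.05 to 0.31, and averaging its probes gave GSTM3 0.18. The cause was not tested. Each array holds a pair of pools and the fit is on ratios within arrays, so every value here is already paired, and no further block was fitted.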
